A study of Drosophila melanogaster with 6 samples.

Results

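The DNA replication machinery was followed, complex by complex, in GFP-positive cells sorted from Drosophila melanogaster embryos. The embryos overexpressed jumu, a gene for a forkhead transcription factor, or served as controls. From 39 listed genes, the 31 with a probe set that the platform annotation pairs with exactly 1 gene were measured, out of 11982 genes in all. Where a gene had several such probe sets the brightest would represent it, but each of the 31 had 1. The genes were listed by name and function, with earlier results of these data known. Mcm7, RnrS, geminin, Orc6, PolD1 and dap have no single-gene probe set in the annotation used, E2f1 is listed there only in a probe set of several genes, and lat is an older name of 2 genes, Orc3 and et. These 8 were not analysed here.

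The study compared a pair of genotypes with 3 arrays each. The overexpression group was twi-GAL4 UAS-2EGFP/UAS-jumu, in which the twist driver switches on both GFP and jumu in the mesoderm, and the control group was twi-GAL4 UAS-2EGFP, in which it switches on GFP. The UAS-jumu insertion stands opposite the driver and reporter, and the labels name nothing in that place for the control, so whether both groups carried equal copies of driver and reporter is not known. Both groups were aged at 29 °C to the end of stage 11 or the start of stage 12, and GFP-positive cells were sorted by fluorescence. Replicates are numbered in the labels, but whether each was its own embryo collection is not said, so p-values measure only the spread between these samples, some or all of which may be technical.

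Replication starts where the origin recognition complex (ORC) sits on DNA. Cdc6 and the protein of dup (Cdt1 in other animals) then load the ring of Mcm proteins, and the GINS complex with Cdc45 turns that ring into the active helicase. Polymerases copy the strands, replication protein A (RPA) covers the single strands that the helicase exposes, replication factor C (RFC) places the sliding clamp PCNA on DNA, and Fen1 with DNA ligase joins the fragments of the lagging strand. Many of these genes are transcribed under E2F factors as cells enter S phase, in flies as in mammals.

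Values are log2 signals per probe set after quantile normalization between the 6 arrays, and a change is the mean of the jumu arrays minus the mean of the controls. Each of 18769 probe sets was tested with limma, with Benjamini-Hochberg adjustment over them and a threshold of 0.05, and a gene is said to have risen or fallen only when past it. The jumu transcript, which checks the labels, had log2 signals of 13.62, 13.35 and 13.69 in jumu arrays, against 11.35, 11.56 and 11.44 in controls, and rose 4.31-fold (limma adjusted p = 0.0165). Arrays correlated at 0.993 to 0.995 within a genotype and at 0.958 to 0.961 between genotypes (Pearson's r over the 4758 probe sets whose mean log2 signal exceeded 9), and no array stood apart. Of 12 measured mesodermal markers 3 rose (htl, lmd and sns) and 11 had a positive change, with summed linear signals of 32321 to 32602 in jumu arrays and 23138 to 24097 in controls. The mesodermal factor gene twi itself had a mean log2 signal of 9.90 in jumu arrays and 9.20 in controls.

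Replication genes were mostly higher in the jumu arrays, by little. Of the 31 genes 2 rose and 0 fell, and both that rose, RPA1 and RPA2, encode subunits of RPA. Over all genes 1.61% rose and 1.71% fell by the same test. A positive change was found in 25 of the 31, against 48.8% of all genes, and the median change was 0.31, against -0.01 over all genes. In 16 of the 31 every jumu array lay above every control array, where 16.6% of all genes and 25% of those with a mean log2 signal over 6 did so. In 3 of the 31 every jumu array lay below every control array, against 17.5% and 26.9% of the same genes. The median level of the 31 genes was 9.59, 9.72 and 9.65 in jumu arrays, against 9.22, 9.37 and 9.31 in controls, while that of the 6464 genes with a mean log2 signal over 6 lay between 9.54 and 9.55 in all 6 arrays. A larger share of replicating cells and more transcript per cell cannot be told apart in such bulk samples.

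These genes were well measured. Their mean log2 signals ran from 7.20 (Psf1) to 11.93 (PCNA), all above the level of 6 under which replicates scattered widely. The median SD between replicates was 0.07 in jumu arrays and 0.11 in controls. The limma standard errors were 0.09 to 0.33, from a variance prior common to all probe sets. When that prior was allowed to follow signal brightness (an intensity trend), 15 of the 31 rose and 2 fell, against 10.3% and 10.9% of all genes in that fit. With dim probe sets left out 14 rose and 3 fell, against 17.7% and 19.5% of the genes kept. With the trend and 1 array left out in turn, 12 to 15 rose and 1 or 2 fell, against 989 to 1148 and 1099 to 1157 of all 11982 genes. With 1 array left out of the fit as reported, with median centring or with scaling to hybridization controls, 0 of the 31 passed. In those fits 0 to 16, 13 and 23 of all genes passed. At an unadjusted p under 0.05 there were 14 higher and 3 lower, against 10.8% and 11.7% of all genes.

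**Figure D1:**
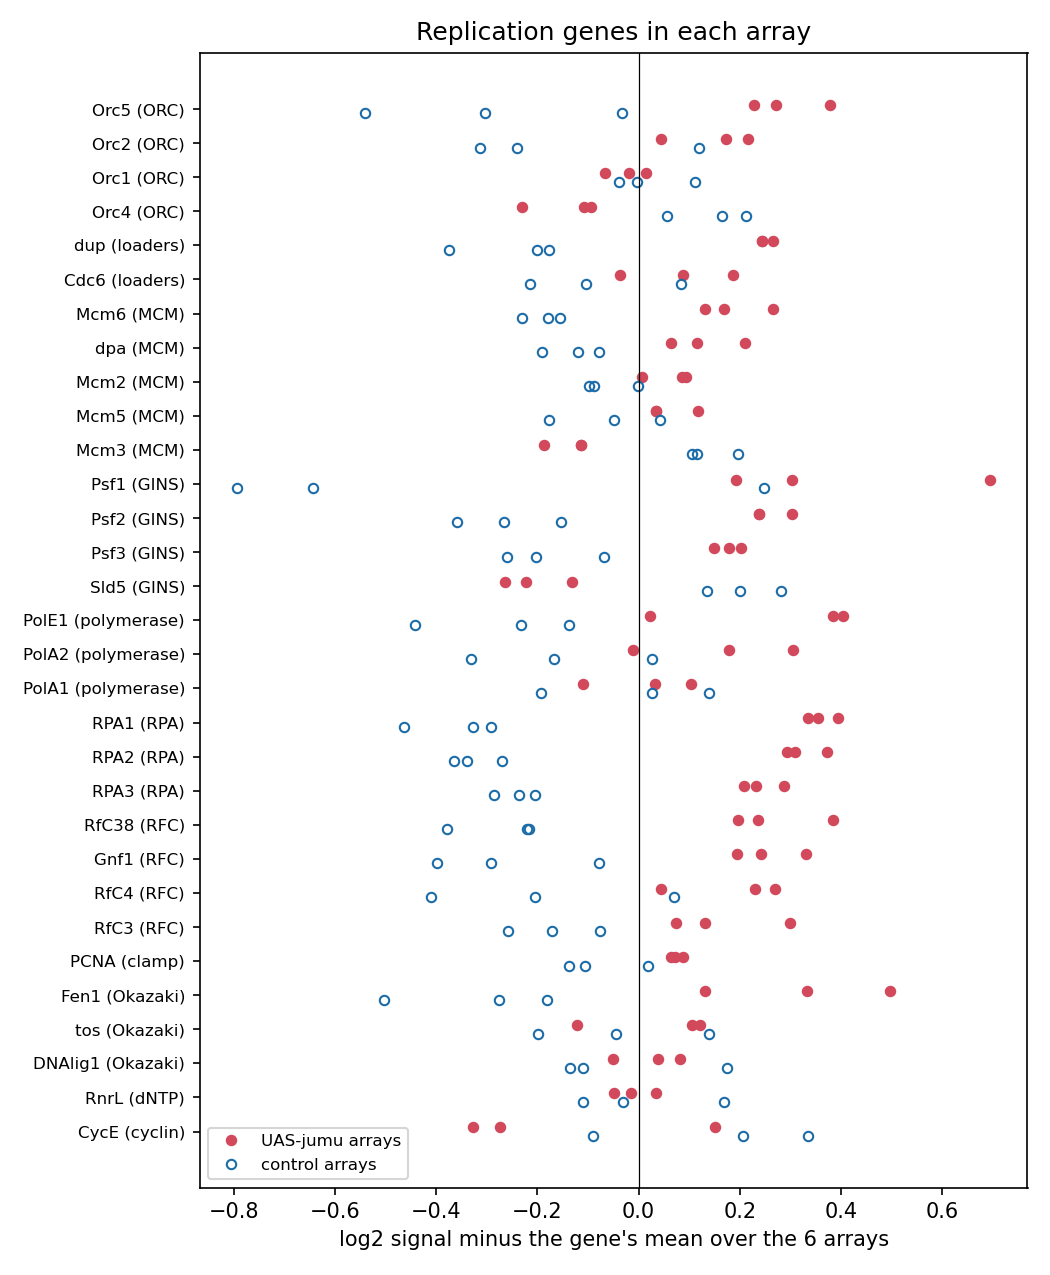
Log2 signal of each of the 31 measured replication genes in each array, minus that gene's mean over the 6 arrays, with UAS-jumu arrays as filled points and control arrays as open points. The points separate with the jumu arrays to the right in 16 genes, among them RPA1, RPA2 and RPA3, and with the jumu arrays to the left in Mcm3, Orc4 and Sld5.

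The changes rested on the scaling between arrays. Median centring, hybridization controls and poly-A controls moved the median change of genes with a mean log2 signal over 6 to 0.26, 0.56 and 0.89, against -0.01 as reported. Set against that median, the 31 genes had a median 0.32 higher as reported, and 25 of them lay above it. With median centring, hybridization controls, poly-A controls and the values as deposited it was 0.29 higher, with 26 above. Those scalings share the same value by construction, since a shift of whole arrays cancels there, so they are not separate checks. With poly-A controls 30 of the 31 passed, all higher, but 5408 of all 11982 genes rose and 76 fell under that scaling. Mcm3, Orc1, Orc4, Sld5, RnrL and CycE, the 6 genes with a negative change as reported, were positive with hybridization or poly-A controls, when all 31 were.

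The origin recognition complex did not move as 1 block. Of its 4 measured subunits 2 had a positive change and 0 passed, with a median of 0.12. Orc5, an ATPase-family subunit, had log2 signals of 9.11, 8.96 and 9.00 in the jumu arrays, against 8.19, 8.70 and 8.43 in the controls. All 3 jumu arrays were above the highest control array, and the change was 0.58 ± 0.16 (SE, limma adjusted p = 0.144). Orc4 went the other way, with 8.68, 8.69 and 8.56 in jumu arrays and 9.00, 8.84 and 8.95 in controls. Its groups did not overlap either, and the change was -0.29 ± 0.10 (SE, limma adjusted p = 0.224). That sign was lost in other scalings, which gave 0.01 (median centring), 0.30 (hybridization controls) and 0.63 (poly-A controls). Relative to the median of genes over 6 the change was -0.28 as reported and -0.26 in the other 4 scalings, which share 1 value by construction. Orc1, the largest subunit, differed by -0.05 (95% interval -0.30 to 0.20), and Orc2 by 0.29 (-0.11 to 0.69), both with overlapping arrays. With an intensity trend Orc5 alone of the 4 passed, upward (adjusted p = 0.00272, over all alternatives 0.000637 to 0.335). With dim probe sets left out Orc5 passed upward and Orc4 downward (limma adjusted p = 0.0176 and 0.0237). All 4 passed upward with poly-A controls, Orc4 among them (limma adjusted p = 0.024).

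Of the helicase loaders, dup was the higher one. It had log2 signals of 11.25, 11.28 and 11.25 in jumu arrays and 10.81, 10.83 and 10.63 in controls, so that the jumu arrays lay close together and above all controls. The change was 0.50 ± 0.10 (SE, limma adjusted p = 0.0843), and with an intensity trend it passed (adjusted p = 1.2e-05, over all alternatives 5.03e-06 to 0.286). Cdc6, the ATPase that works beside it, differed by 0.16 (95% interval -0.18 to 0.49) and its arrays overlapped.

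In the Mcm ring the change was small and uneven. Of 5 measured subunits 4 had a positive change and 0 passed, with a median of 0.12. Mcm6 was the highest, with log2 signals of 11.60, 11.69 and 11.56 in jumu arrays and 11.20, 11.27 and 11.25 in controls. Every jumu array was above every control, and the change was 0.38 ± 0.09 (SE, limma adjusted p = 0.119). Mcm3 had 10.05, 10.05 and 9.98 in jumu arrays against 10.27, 10.28 and 10.36 in controls, the reverse order with no overlap. Its change was -0.28 ± 0.09 (SE, limma adjusted p = 0.197). The sign depended on the scaling, with 0.02 after median centring, 0.32 with hybridization controls and 0.64 with poly-A controls. Relative to the median of genes over 6 it was -0.27 as reported and -0.25 in the other 4 scalings, again 1 shared value. The other 3 were dpa (the fly Mcm4) at 0.26, Mcm2 at 0.12 and Mcm5 at 0.12. Mcm6 and dpa passed upward and Mcm3 downward with an intensity trend. With 1 array left out as well, Mcm6 and Mcm3 passed in all 6 fits and dpa in 4, while with poly-A controls Mcm3 passed upward (limma adjusted p = 0.0234).

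GINS held the widest span of any complex here. Of its 4 subunits 3 had a positive change and 0 passed, with a median of 0.44. Psf2 and Psf3 were higher by 0.52 and 0.35, each with every jumu array above every control. Psf1 had log2 signals of 7.50, 7.39 and 7.89 in jumu arrays and 6.55, 7.44 and 6.40 in controls. One control array reached the level of the jumu arrays, and its change of 0.79 ± 0.33 (SE, limma adjusted p = 0.288) had the largest error of the 31. Sld5, the fourth subunit, had 7.96, 8.05 and 7.92 in jumu arrays, against 8.47, 8.39 and 8.32 in controls. Here all jumu arrays were the lower ones. The change was -0.41 ± 0.10 (SE, limma adjusted p = 0.113), or 0.14 with hybridization controls and 0.46 with poly-A controls. Relative to the median of genes over 6 it was -0.40 as reported and -0.42 in the other 4 scalings, again 1 shared value. With an intensity trend Psf2 and Psf3 passed upward, also in the 6 fits without 1 array. Sld5 passed downward there (adjusted p = 0.0408, over all alternatives 0.0063 to 0.75), but not with the robust trend (0.0544) and in 0 of the 6 trend fits without 1 array (0.0546 to 0.122), and with poly-A controls it passed upward (0.0377).

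**Figure D2:**
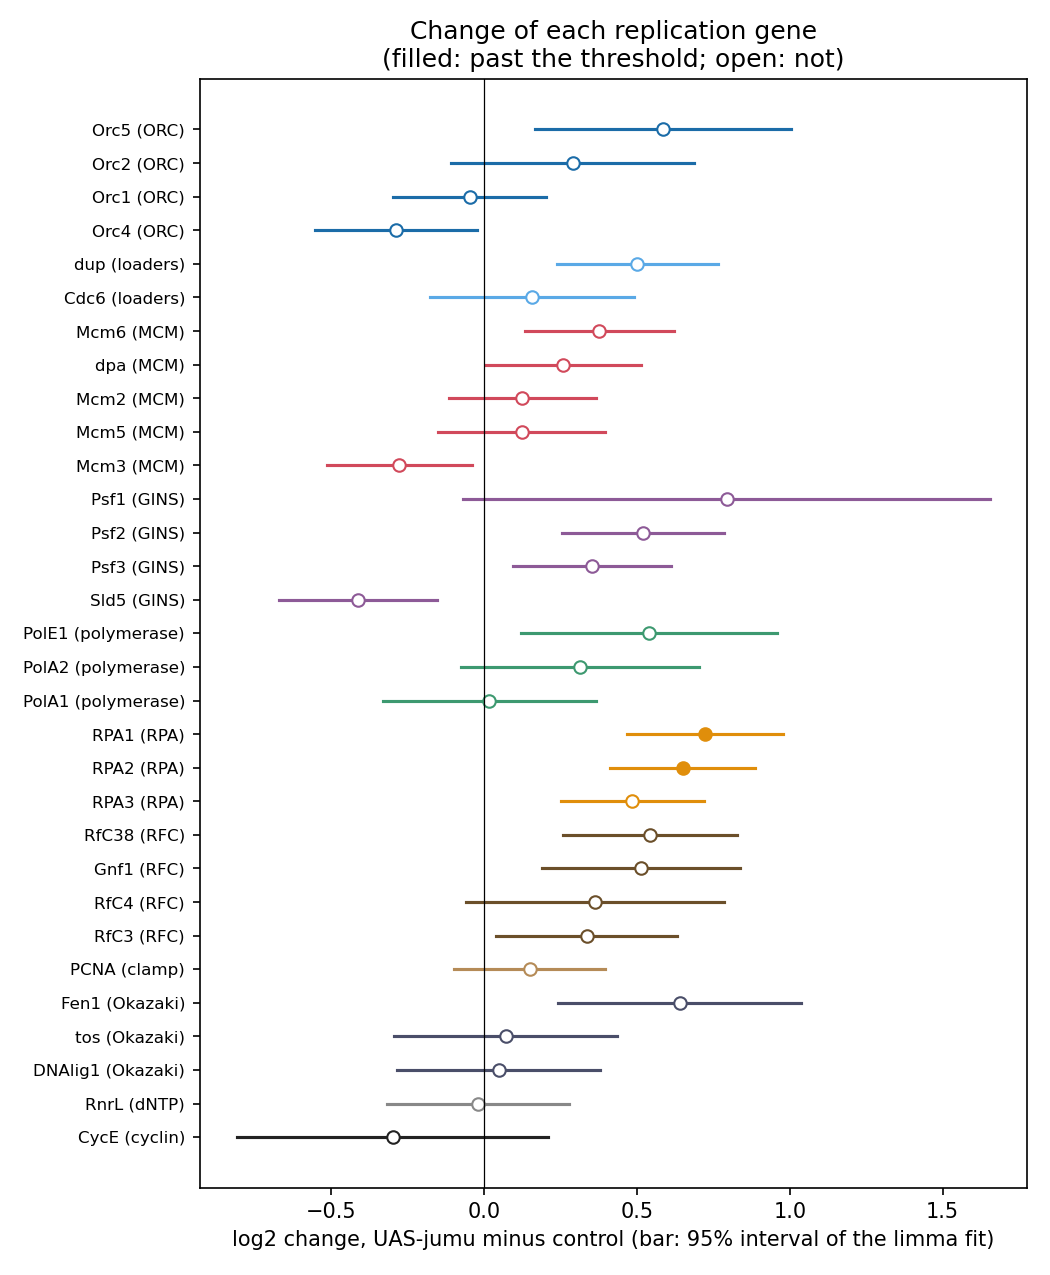
Log2 change (UAS-jumu minus control) of each measured replication gene with its 95% interval from the limma fit over 3 arrays per group, coloured by complex, filled where the gene passed the threshold and open where it did not. RPA1 and RPA2 are filled, all members of RPA, RFC and the polymerases lie right of 0, and ORC, MCM and GINS each have at least 1 subunit left of it.

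The polymerase genes were higher in part. All 3 measured subunits had a positive change and 0 passed, with a median of 0.31. PolE1, the catalytic subunit of the leading-strand polymerase, had log2 signals of 8.25, 7.88 and 8.27 in jumu arrays and 7.63, 7.42 and 7.72 in controls. All jumu arrays exceeded the controls, and the change was 0.54 ± 0.16 (SE, limma adjusted p = 0.167). PolA1, the catalytic subunit of the polymerase that starts each strand with primase, had 8.22, 8.15 and 8.01 in jumu arrays and 8.26, 7.93 and 8.15 in controls. These overlapped fully, and the change was 0.02 (95% interval -0.33 to 0.37). PolA2, its partner subunit, differed by 0.31 (-0.07 to 0.70). In the fit with an intensity trend PolE1 alone of the 3 passed, with an adjusted p of 0.0321 (over all alternatives 0.0087 to 0.359), and it passed in 2 of the 6 trend fits without 1 array.

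All 3 subunits of RPA were higher, and 2 of them rose, with a median of 0.65. RPA1, the large subunit that holds most of the DNA-binding surface, had log2 signals of 11.03, 11.09 and 11.05 in jumu arrays and 10.37, 10.23 and 10.41 in controls. It rose 1.65-fold (log2 change 0.72 ± 0.10 SE, limma adjusted p = 0.0402). RPA2, the middle subunit, had 10.75, 10.68 and 10.67 in jumu arrays and 10.11, 10.04 and 10.01 in controls. It rose 1.57-fold (0.65 ± 0.09 SE, limma adjusted p = 0.0421). RPA3, the small subunit, had 11.24, 11.16 and 11.19 in jumu arrays and 10.72, 10.75 and 10.67 in controls, a change of 0.48 ± 0.09 (SE, limma adjusted p = 0.0714). In each of the 3 genes the gap between the groups was several times the spread within them. The calls of RPA1 and RPA2 were lost with 1 array left out (adjusted p 0.111 to 0.15 for RPA1 and 0.114 to 0.155 for RPA2) and with median centring (0.151 and 0.137), while the log2 changes without 1 array were 0.67 to 0.76 and 0.63 to 0.68. Over all alternatives the adjusted p ran from 4.39e-08 to 0.254 for RPA1 and from 4.89e-07 to 0.254 for RPA2.

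The clamp loader genes were also all higher. Of the 4 RFC genes 4 had a positive change and 0 passed, with a median of 0.44 and a narrow span of 0.34 to 0.54. RfC38, a small subunit, had log2 signals of 9.40, 9.44 and 9.59 in jumu arrays and 8.99, 8.99 and 8.83 in controls. Every jumu array was above every control, with a change of 0.54 ± 0.11 (SE, limma adjusted p = 0.0837). RfC3 had 9.49, 9.43 and 9.65 in jumu arrays against 9.18, 9.28 and 9.10 in controls, again without overlap, and a change of 0.34 ± 0.12 (SE, limma adjusted p = 0.21). Gnf1, the large subunit, was higher by 0.51 and RfC4 by 0.36, the second with overlapping arrays. All 4 passed upward with an intensity trend, but with 1 array left out as well, 3 passed in each of the 6 fits. Gnf1 and RfC38 passed in all 6, RfC3 in 4 and RfC4 in 2, and with dim probe sets left out RfC4 had an adjusted p of 0.0792 (over all alternatives 0.00204 to 0.536).

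PCNA, the clamp that RFC loads, was the brightest of the 31 and changed little. It had log2 signals of 11.99, 12.00 and 12.02 in jumu arrays and 11.79, 11.82 and 11.95 in controls. The groups did not overlap, yet the change was only 0.15 ± 0.10 (SE, limma adjusted p = 0.488), and it did not pass with an intensity trend either (adjusted p = 0.0679, over all alternatives 0.00796 to 0.658).

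Of the 3 nucleases and ligases of fragment joining and repair, Fen1 stood out. This flap endonuclease gene had log2 signals of 9.23, 9.39 and 9.03 in jumu arrays and 8.62, 8.71 and 8.39 in controls. Each jumu array exceeded all controls, by a mean of 0.64 ± 0.15 (SE, limma adjusted p = 0.111), and with an intensity trend the gene passed. DNAlig1, the ligase gene, differed by 0.05 (95% interval -0.28 to 0.38), and tos, the fly exonuclease Exo1, by 0.07 (-0.30 to 0.44).

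The 2 measured members outside these complexes, RnrL and CycE, had negative changes that did not pass. RnrL, the large subunit of ribonucleotide reductase, which makes the DNA precursors, differed by -0.02 (95% interval -0.32 to 0.28). CycE, the cyclin that drives entry into S phase, had log2 signals of 10.53, 10.58 and 11.01 in jumu arrays and 11.19, 10.77 and 11.06 in controls. One jumu array lay among the controls, and the change was -0.30 ± 0.20 (SE, limma adjusted p = 0.498), turning to 0.28 and 0.61 with hybridization and poly-A controls.

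**Figure D3:**
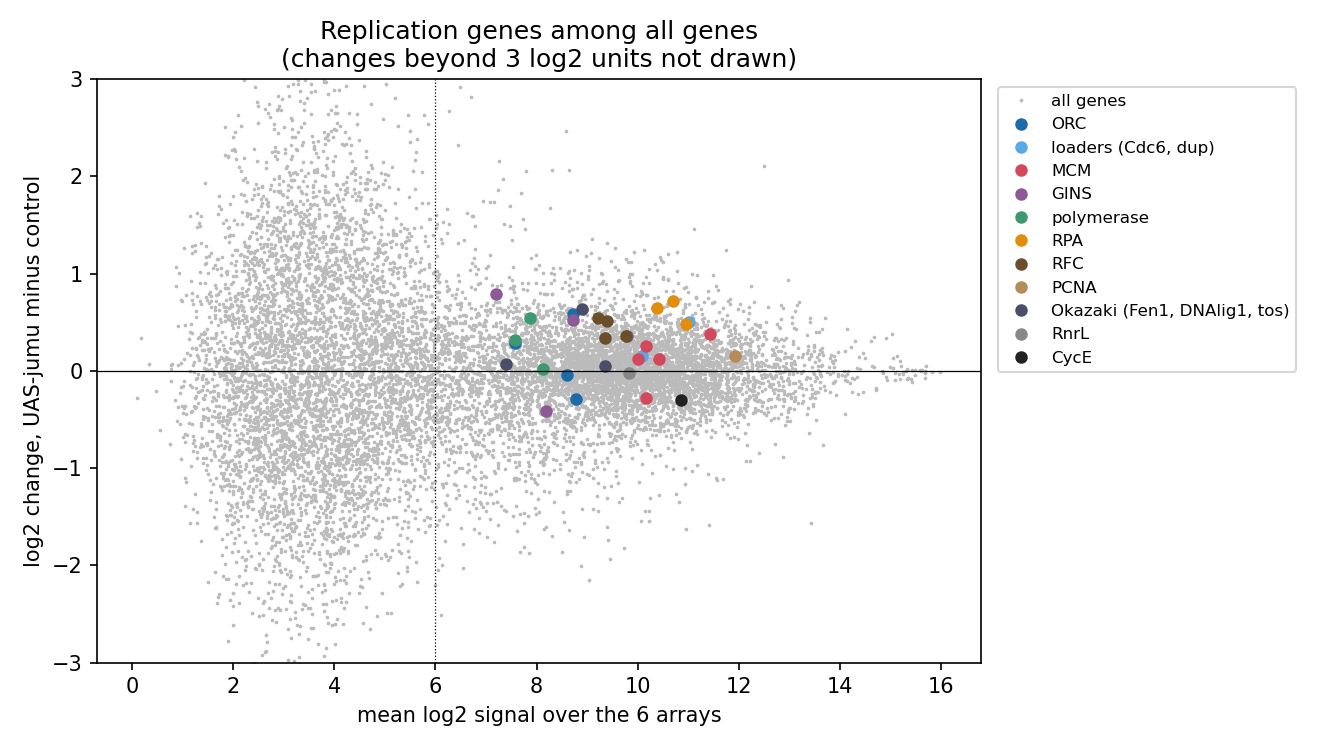
Log2 change (UAS-jumu minus control) against the mean log2 signal over the 6 arrays, for all genes in grey and for the 31 replication genes coloured by complex; the dotted line marks a log2 signal of 6, and changes beyond 3 log2 units are not drawn. The replication genes sit between 7.20 and 11.93 on the level axis and between -0.41 and 0.79 on the change axis, most of them above the middle of the grey cloud.

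Level did not sort these genes. Across the 31 genes, the change and the mean log2 signal had a Spearman's rho of 0.00 and a Pearson's r of -0.02, a description over genes that share the same 6 arrays. A change over 0.5 was found in 10 of the 31, in RPA, RFC, GINS, ORC and polymerase genes and in dup and Fen1, where 18.7% of all genes, 8.73% of genes with a mean log2 signal over 6 and 6.05% of those over 9 had one. A change under -0.5 was found in 0, against 20.5% of all genes and 10.4% of those over 6.

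Set side by side, the medians of the complexes were 0.65 in RPA (3 genes), 0.44 in RFC (4), 0.44 in GINS (4), 0.31 in the polymerases (3), 0.12 in MCM (5) and 0.12 in ORC (4). Leaving out 1 array in turn gave 0.63 to 0.68 for RPA, 0.40 to 0.49 for RFC, 0.39 to 0.49 for GINS, 0.23 to 0.41 for the polymerases, 0.11 to 0.18 for MCM and 0.07 to 0.21 for ORC. The range of RPA lay above all others and those of MCM and ORC overlapped each other, as did those of RFC, GINS and the polymerases. These ranges share most arrays and leave out the spread between genes, so they do not rank the complexes. RPA3 at 0.48 lay below the highest gene of RFC (0.54), GINS (0.79), ORC (0.58) and the polymerases (0.54), and above that of MCM (0.38). No test of the order was made, since the members were grouped with these results known.

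A shift of a whole array cancels in the log2 ratio of a pair of subunits within that array. Quantile normalization is not such a shift, and the ratios given here were taken after it. For each complex the subunit with the highest change was set over the one with the lowest, so these pairs are shown for their difference and were not tested. Mcm6 over Mcm3 was 1.55, 1.64 and 1.58 in jumu arrays and 0.93, 0.99 and 0.89 in controls, a difference of 0.65. Psf1 over Sld5 was -0.39 ± 0.32 in jumu arrays and -1.59 ± 0.56 in controls (SD, n = 3 each), a difference of 1.20. Orc5 over Orc4 was 0.38 ± 0.10 in jumu arrays and -0.49 ± 0.33 in controls, a difference of 0.87. By contrast, RPA1 over RPA3 was -0.14 ± 0.07 in jumu arrays and -0.38 ± 0.13 in controls (SD, n = 3 each), and RfC38 over RfC3 was -0.04 ± 0.05 in jumu arrays and -0.25 ± 0.05 in controls, differences of 0.24 and 0.21. PolE1 over PolA1 was 0.003 ± 0.26 in jumu arrays and -0.52 ± 0.10 in controls, a difference of 0.52. The extremes of RPA and RFC thus lay closer together than those of ORC, MCM, GINS and the polymerases. A gap between extremes tends to grow with the number of subunits measured. That number was 3 in RPA and the polymerases, 4 in RFC, ORC and GINS and 5 in MCM.

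**Figure D4:**
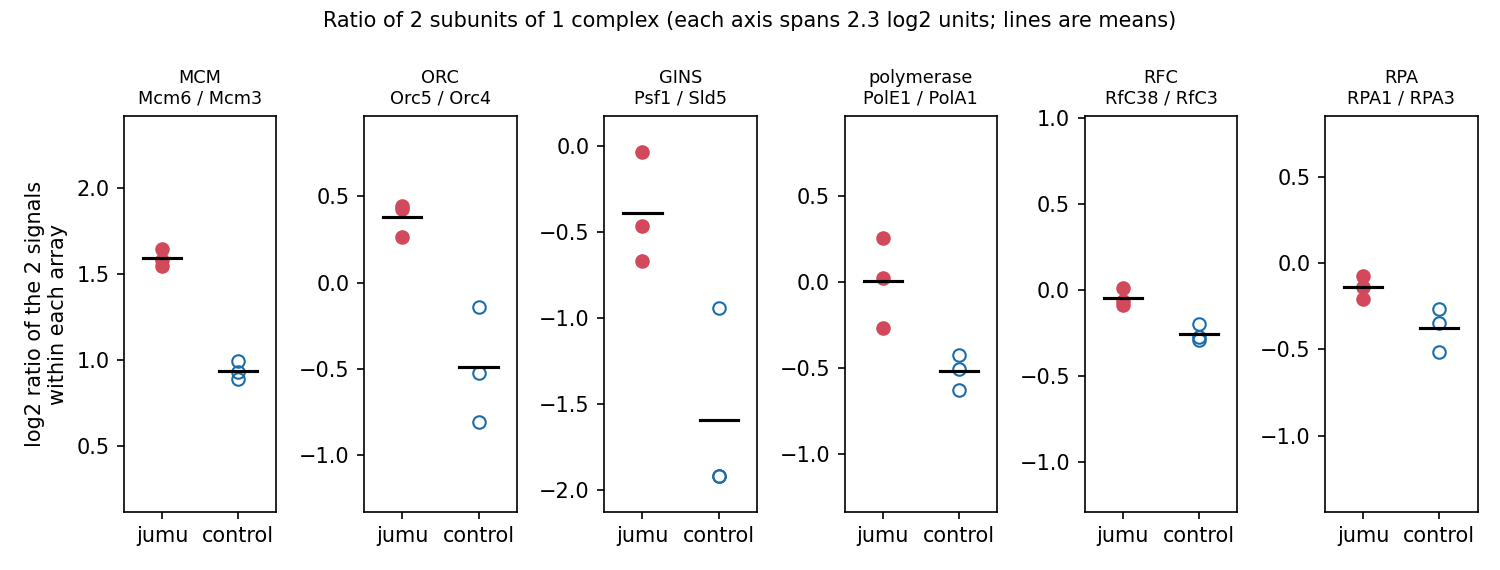
Log2 ratio of the signals of a pair of subunits within each array, one panel per complex, with UAS-jumu arrays (filled) left of control arrays (open), lines at group means and every axis spanning the same number of log2 units. The gap between the means is widest for Psf1 over Sld5 (1.20) and narrowest for RfC38 over RfC3 (0.21).

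A second list held 52 further replication genes, chosen from general knowledge with earlier results of these data known, and 46 of them were measured. Of these 1 rose and 0 fell, against 1.61% and 1.71% of all genes, 36 had a positive change, against 48.8%, and the median was 0.17. A count of 1 in 46 is near the share over all genes. The gene that rose, Cks30A, encodes a small subunit of cyclin-dependent kinases known for its part in mitosis and meiosis. It had a log2 signal of 11.85 ± 0.03 in jumu arrays and 10.39 ± 0.003 in controls (SD, n = 3 each), and its change was 1.45 ± 0.09 (SE, limma adjusted p = 0.0149). With an intensity trend 14 of the 46 rose and 1 fell, against 10.3% and 10.9% of all genes, and with 1 array left out of the fit as reported 0 passed.

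Partner subunits of the complexes above, named here after their values were seen, were again uneven. PolD2, an accessory subunit of the lagging-strand polymerase, was higher by 0.69 ± 0.13 and Mcm10, a helicase activator, by 0.50 ± 0.14 (SE, limma adjusted p = 0.0697 and 0.137). Lower ones were Prim1, the catalytic subunit of primase, at -0.44 ± 0.10 and PolE2, a partner of PolE1, at -0.44 ± 0.12 (SE, limma adjusted p = 0.0997 and 0.143). In these 4 genes the groups did not overlap. Prim1 and PolE2 had changes of -0.21 each with median centring, of 0.09 each with hybridization controls, and of 0.42 and 0.41 with poly-A controls. With an intensity trend PolD2 and Mcm10 passed upward (adjusted p = 0.000618 and 0.00784), while Prim1 and PolE2 did not pass (0.0747 and 0.0754). Cdc45, the third part of the helicase, differed by 0.03, Prim2 by 0.02 and PolE4 by 0.16.

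Markers of other cell types also differed between the groups in the same arrays. Of 8 measured nervous system markers 7 fell and 0 rose, with a median of -1.06 and summed linear signals of 15623 to 15706 in jumu arrays and 28900 to 29701 in controls. Of 6 epidermal and tracheal markers 3 fell and 0 rose, with a median of -0.78 and sums of 2674 to 2927 against 5011 to 5519. The 6 blood cell markers were mixed, with a median of 0.44: 4 had a positive change, 2 fell (Pxn and PPO1) and 0 rose. Their sums were 16895 to 17114 in jumu arrays and 18776 to 19516 in controls. Among the 4 were He, with a mean log2 signal of 6.65 in jumu arrays and 1.69 in controls, and Hml, with 7.99 in jumu arrays and 3.13 in controls, both in the scattered range under 6 in controls (limma adjusted p = 0.0646 and 0.105). Of 2 endodermal markers 1 fell (861 to 967 against 1186 to 1291) and of 2 germ line markers 1 rose (294 to 380 against 125 to 167). No defining neural marker was near background, with elav at 12.44 in jumu arrays and 13.32 in controls, and of the 36 measured markers only vas was under 6 in both groups. The part of these cell types in the replication gene changes was not tested.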

How the data were processed

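Groups and replicate numbers came from the sample titles. The deposited table holds log2 signals per probe set, made by the authors with the package affy per the submitters' processing notes; the sources used here do not give its version, background correction, normalization or summary, and base 2 was inferred from their range. Array medians were 5.43, 5.30 and 5.09 in jumu arrays and 5.61, 5.64 and 5.38 in controls, so quantile normalization was applied. The 183 control probe sets were left out. Symbols were updated by gene identifier through a RefSeq table (Release 6 assembly), which matched 13544 of 13647 probe sets with 1 gene. No coordinates are given, since no build is named.

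Probe sets were tested in R 4.3.3 with limma 3.58.1 (lmFit, eBayes, two-sided, no covariates), and the code was tested on simulated data. The rule for named genes was all measured members, array values for those past the threshold and for the highest and lowest of each complex, and list genes past the threshold; array values of dup, PCNA, Fen1 and CycE were added after their values were seen. Members and lists were chosen with earlier results of these data known. Promoter motifs were not searched, for want of sequences. The number of arrays limits the precision. Alternatives were 4 other scalings, a filter at a log2 signal of 6, an intensity trend without and with robust estimation, the replicate number as a block, each array left out, and the mean of a gene's probe sets; the trend with an array left out was added after seeing the data.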

Additional observations from a re-analysis of the deposited data

How the results depend on the processing

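The count of genes past the threshold was 398, against 13 with median centring, 23 with hybridization controls, 5484 with poly-A controls, 2405 with dim probe sets left out, 2541 with an intensity trend, 2518 with a robust trend, 0 to 16 without 1 array and 2092 to 2279 with the trend and without 1 array. Members past it numbered 2, against 0, 0, 30, 17, 17, 17, 0 and 13 to 16 in the same order. For the second list these counts were 1, against 0, 0, 40, 15, 15, 13, 0 and 10 to 12. Of the 17 members past the threshold, 14 were higher and 3 lower with the filter, 15 and 2 with the trend, and 16 and 1 with the robust trend.

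With the replicate block 0 genes, 0 members and 0 genes of the second list passed. Whether same-numbered samples were collected or processed as pairs is not known. Deviations of same-numbered arrays correlated at -0.006, -0.004 and 0.05 over probe sets with a log2 signal over 6. Those of differently numbered arrays correlated at -0.04 to 0.04, and such values cannot settle the pairing.

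Median changes moved with the scaling. With median centring, hybridization controls and poly-A controls they were 0.55, 0.85 and 1.17 for all members, 0.42, 0.72 and 1.05 for MCM, 0.49, 0.79 and 1.12 for ORC with Cdc6 and dup (0.22 as reported, 0.18 to 0.26 without 1 array), 0.73, 1.02 and 1.35 for GINS, 0.55, 0.84 and 1.17 for the polymerases, 0.66, 0.96 and 1.29 for RFC with PCNA (0.36 as reported), and 0.94, 1.24 and 1.57 for RPA. As deposited, those of all members and of MCM were 0.28 and 0.15. Without 1 array, with or without the trend, they were 0.25 to 0.34 for all members, 0.11 to 0.18 for MCM, 0.23 to 0.41 for the polymerases and 0.35 to 0.49 for RFC with PCNA. With poly-A controls Mcm3, RnrL, Orc1, Orc4 and Sld5 turned to 0.64, 0.90, 0.86, 0.63 and 0.46. The cause of these moves was not tested, except that a shift of whole arrays moves every gene by 1 amount. The depth limit of arrays touched none of the 31 genes, whose means were over 6.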

Other observations

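The second list also held genes that supply precursors and histones to replicating DNA, and they are given here as values, named after these were seen. The dUTPase gene, which keeps uracil out of DNA, had a log2 signal of 12.06 ± 0.13 in jumu arrays and 11.48 ± 0.06 in controls (SD, n = 3 each), a change of 0.58 (limma adjusted p = 0.08). Slbp, which binds histone mRNA, was higher by 0.41, and mxc, a scaffold of the histone locus body, by 0.34, both without overlap between the groups. In contrast dnk, a nucleoside kinase gene, differed by -0.28, also without overlap, or 0.02 with median centring, 0.32 with hybridization controls and 0.64 with poly-A controls. The histone chaperone genes asf1 and Nap1 differed by -0.04 and -0.05, or 0.26 and 0.18 with median centring. The listed Caf1 genes, also of a histone chaperone, were higher by 0.13 to 0.28, and Ts, a further precursor gene, by 0.44. The arrays of Ts and of the Caf1 genes overlapped, and none of these genes passed with an intensity trend. With an intensity trend dUTPase, Slbp and mxc passed upward and dnk downward (adjusted p = 2.24e-06, 0.000104, 0.00433 and 0.00911).

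The regulator l(2)dtl, whose product (Cdt2 in other animals) marks Cdt1 for destruction in S phase, was higher by 0.66 beside dup at 0.50, with no overlap in either gene. Cdk2, the partner kinase of CycE, was higher by 0.41 with no overlap, beside CycE at -0.30. E2f2 and Rbf, which restrain E2F targets, differed by 0.04 and 0.12, with overlapping arrays. The related genes Rbf2 and Dp were higher by 0.39 and 0.25, both with no overlap. None of the genes in this paragraph passed in the fit as reported. With an intensity trend l(2)dtl, Cdk2, Rbf2 and Dp passed upward (adjusted p = 0.0018, 0.0055, 0.0468 and 0.0164), and E2f2 and Rbf did not pass.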
